A study of Mus musculus with 8 samples.

Results

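The genes described here are 40 genes of protein folding and quality control in the endoplasmic reticulum (ER), chosen by name for their known roles, with earlier results of these data known, from the 43346 genes of the count table. All 40 were found in the table by gene name, 39 had reads and passed the low-count filter, and 1 (Derl3) had no read in any library. The ER is where secreted and membrane proteins are folded, given disulfide bonds and sugar chains, and checked before export. When unfolded protein accumulates there, 3 membrane sensors, encoded by Ern1, Atf6 and Eif2ak3, signal to the nucleus, and this unfolded protein response raises chaperones, disulfide isomerases and the machinery that degrades misfolded protein. Osteoblasts depend on this pathway because they secrete large amounts of procollagen, which also needs its own chaperones and enlarged transport carriers.

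The libraries come from MC3T3, a mouse pre-osteoblast cell line, kept for 7 days under mineralizing conditions, in both groups with ascorbic acid at 100 ug/mL and beta-glycerophosphate at 10 mM. The LLC_CM group (4 libraries) also received 25% medium conditioned for 48 hours, without serum, by LLC1, a mouse Lewis lung carcinoma line. The NCM group (4 libraries) is taken as the vehicle control by elimination, since its abbreviation is not spelled out. One cell line was used, and nothing in the labels ties the replicates to separate dishes, so the p-values speak only of library-to-library spread, which may be technical.

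Library totals ran from 27264212 to 35573953 counts, and a count of 0 allowed up to 0.110 CPM (3 counts in the shallowest library, counting error only). CPM means counts per 1000000 counted reads, over totals scaled by TMM. All 9 osteoblast markers examined had reads in both groups, and their summed level was 65801 to 77986 CPM in LLC_CM and 92910 to 119005 CPM in NCM. All 9 were called, 8 lower and 1 (Spp1) higher. Alpl averaged 13.7 CPM in LLC_CM and 62.6 CPM in NCM, Bglap averaged 1.55 CPM in LLC_CM and 128 CPM in NCM, and Spp1 averaged 4626 CPM in LLC_CM and 2695 CPM in NCM. Of 7 macrophage markers in the table, Tyrobp and Itgam had no read. The sum of the 7 was 18.7 to 32.3 CPM in LLC_CM and 11.7 to 17.4 CPM in NCM, with 2 of the 4 tested markers called higher. Lyz2 made up most of it, at means of 20.3 CPM in LLC_CM and 11.5 CPM in NCM. Fcer1g was the other marker called, while Cd68 and Csf1r were not called. The 5 adipocyte markers summed to 17.7 to 25.0 CPM in LLC_CM and 7.98 to 10.2 CPM in NCM, with both tested ones (Fabp4 and Cebpa) higher. Adipoq, Plin1 and Lep were too low to be tested, with group means of at most 0.451 CPM. The 5 endothelial markers (Cdh5 and Kdr at 0) summed to 1.52 to 1.71 CPM in LLC_CM and 2.18 to 2.73 CPM in NCM. The 5 epithelial markers (Epcam, Krt8 and Krt18 at 0) summed to at most 0.16 CPM in LLC_CM and 0.18 CPM in NCM. The part of these differences in the results for the ER genes was not tested. In bulk RNA, fewer cells of a type and less RNA per cell cannot be told apart.

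The calls divided by role only in part. All 11 genes that rose in LLC_CM are chaperones, disulfide isomerases or collagen-modifying proteins. The 14 that fell include 5 sensors and transcription factors, 3 export genes and 3 degradation genes. The rest that fell, Dnajb9, Fkbp10 and Fkbp14, come from the chaperone and collagen groups. Of the 39 tested genes, 25 (64.1%) were called by edgeR's quasi-likelihood test, taking 0.05 as the limit for the adjusted p (Benjamini-Hochberg), against 36.9% of all 14991 genes tested. The share called higher over all genes was 18.8%, and the share called lower was 18.1%. The ER genes are abundant, at a median of 134 CPM against 20.8 CPM over all genes tested. Among genes with a mean of at least 5 CPM, a cutoff chosen after the values were seen, 25 of 38 ER genes (65.8%) and 41.1% of all genes were called. This cutoff does not make the levels of the ER genes and of all genes alike, and the share called at matched levels was not tested. The absolute log2 fold change had a median of 0.31 for the ER genes and 0.21 for all genes tested, and 9 ER genes were called with a value of at least 0.5, as were 17.9% of all genes. Of the ER genes, 1 (Creb3l1) changed at least 2-fold, a size reached with a call by 8.61% of all genes. The signed median was -0.02 for the ER genes and 0.01 for all genes. The 4 LLC_CM values lay wholly above or wholly below the 4 NCM values for 25 of the 39, against 36.3% of all genes tested. In 11 of these the LLC_CM values were above (18.1% of all genes) and in 14 below (18.2% of all genes).

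**Figure D1:**
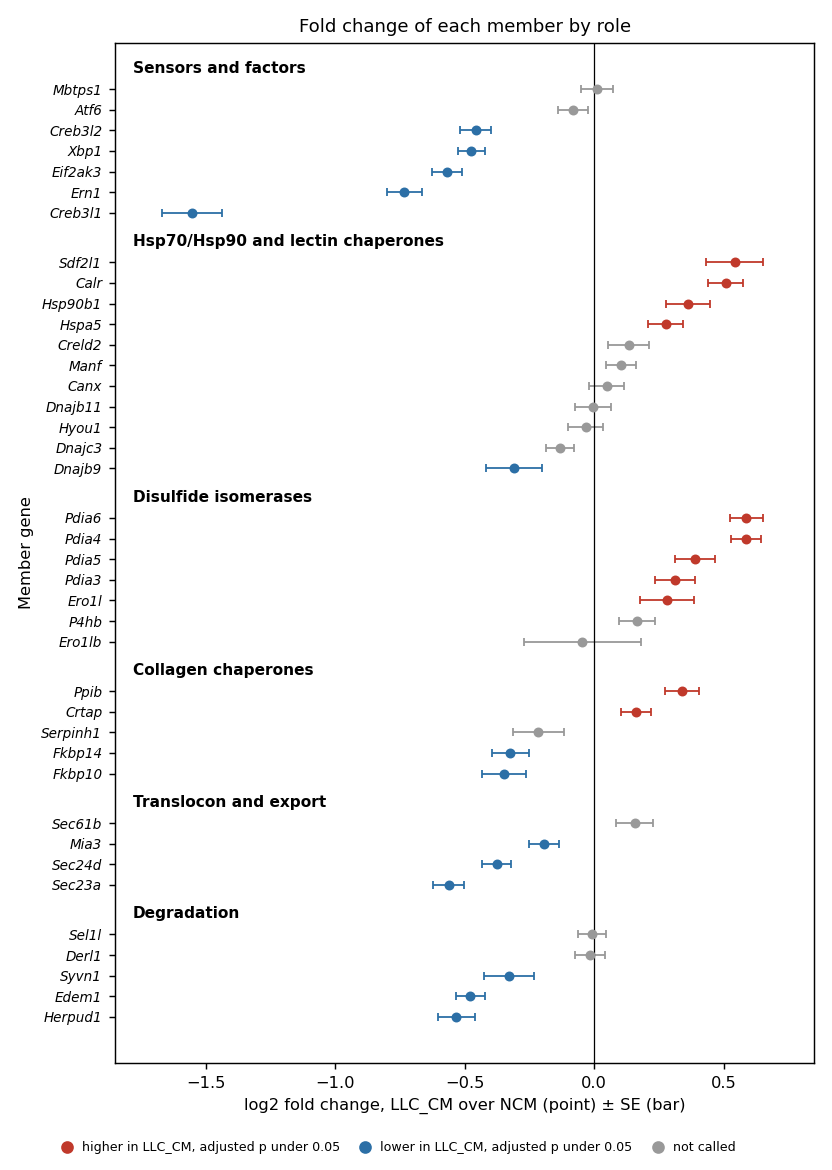
Log2 fold change of LLC_CM over NCM for each of the 39 tested ER genes, sorted within role, with bars of 1 SE (n = 4 libraries per group). Red points were called higher and blue points lower at an adjusted p under 0.05, and grey points were not called. The sensor, export and degradation groups hold no red point, the disulfide isomerases hold no blue one, and Creb3l1 lies farthest to the left at -1.55.

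Sensors and transcription factors were lower in LLC_CM: of 7 genes, 5 fell and none rose, with a median log2 fold change of -0.47. Creb3l1 encodes OASIS, a membrane-bound transcription factor of osteoblasts that is cut free under ER stress and drives type I collagen transcription in mouse bone. Creb3l1 (ENSMUSG00000027230, chromosome 2, 91982328 to 92024502 in mm10) had 55.7, 59.6, 71.0 and 65.9 CPM in the LLC_CM libraries, against 165, 159, 233 and 183 CPM in the NCM libraries. The highest LLC_CM library was well under the lowest NCM library. The gene was 2.93-fold lower, a log2 fold change of -1.55 ± 0.12 (SE, edgeR, adjusted p = 3.9e-07). Its closest relative on the list, Creb3l2, which encodes BBF2H7, a factor for secretory genes in mouse cartilage, averaged 99.2 ± 5.28 CPM in LLC_CM and 136 ± 6.71 CPM in NCM (SD, n = 4), and fell by 0.46 ± 0.06 on the log2 scale (edgeR, adjusted p = 1.7e-05).

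Transcripts of 2 of the 3 ER stress sensors fell. Ern1 encodes IRE1 alpha, the kinase and endonuclease that splices Xbp1 mRNA. It had 35.6, 31.4, 37.5 and 34.8 CPM in LLC_CM, against 56.8, 57.0, 62.0 and 56.0 CPM in NCM, with no overlap between groups. It was 1.66-fold lower (log2 fold change -0.73 ± 0.07, edgeR, adjusted p = 5.7e-07). Eif2ak3 encodes PERK, the kinase that slows translation through eIF2 alpha. Its level was 60.3, 58.9, 59.9 and 59.1 CPM in LLC_CM, against 84.9, 82.5, 94.6 and 91.5 CPM in NCM. The 4 LLC_CM values were nearly equal and all lay under the NCM range, and the gene fell by 0.57 ± 0.06 on the log2 scale (edgeR, adjusted p = 1.8e-06). A gene model on the other strand covered 8.05% of its exonic length in GENCODE M21, and reads of the strands cannot be told apart here.

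Xbp1, the factor downstream of IRE1 alpha, was lower, and the remaining sensor Atf6 and its protease were not called. Xbp1 had 154, 156, 154 and 151 CPM in LLC_CM, against 212, 206, 222 and 216 CPM in NCM. The groups did not overlap, and Xbp1 was 1.39-fold lower (log2 fold change -0.47 ± 0.05, edgeR, adjusted p = 2.9e-06). Gene counts do not separate spliced from unspliced Xbp1 mRNA, so they carry no measure of IRE1 alpha activity. Atf6, whose product moves to the Golgi and is cut there, had 85.3 to 92.2 CPM in LLC_CM and 90.3 to 102 CPM in NCM, overlapping ranges with a log2 fold change of -0.08 ± 0.06. Mbtps1, which encodes the site-1 protease that cuts Atf6, had 203 to 238 CPM in LLC_CM and 215 to 231 CPM in NCM, and its log2 fold change was 0.01 ± 0.06. All 5 calls of this group held in each of 19 other settings of the fit.

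**Figure D2:**
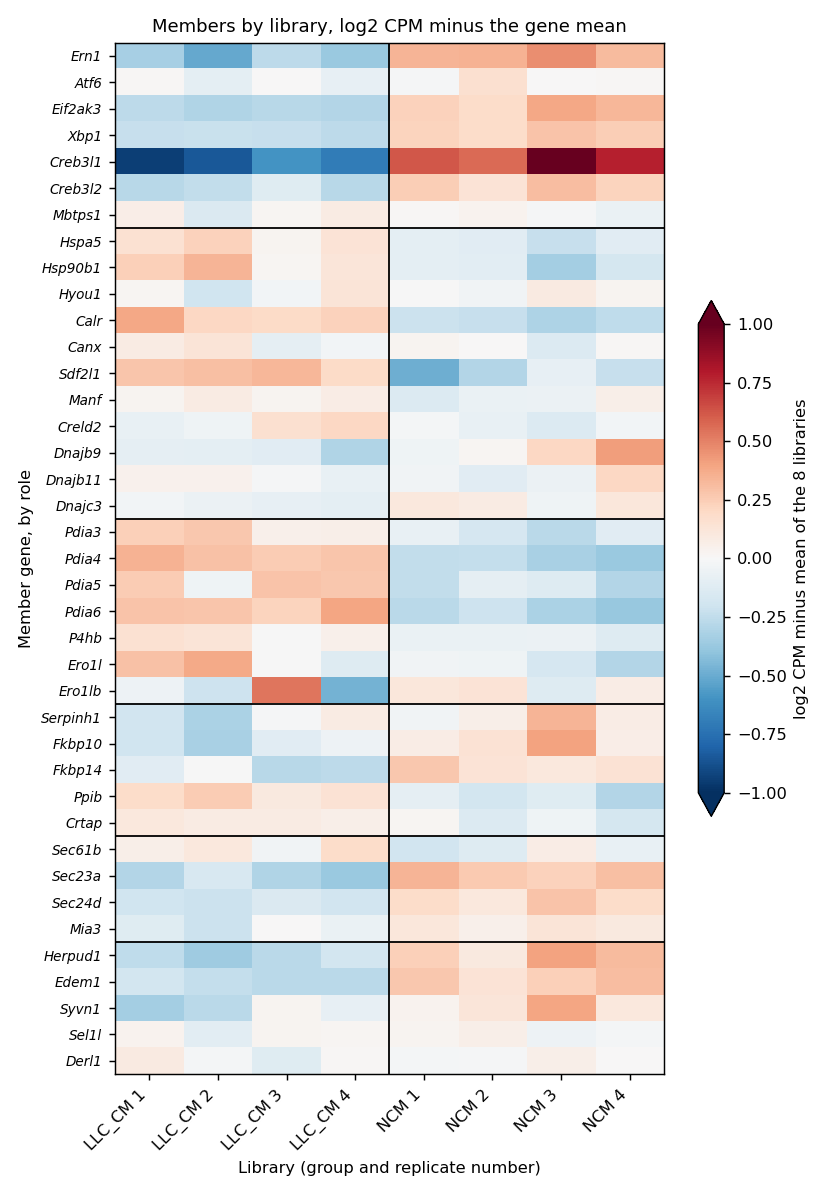
Log2 CPM of each tested ER gene in each library minus that gene's mean over the 8 libraries, with LLC_CM libraries on the left and NCM libraries on the right. Rows are grouped by role between black lines in the order sensors, Hsp70/Hsp90 and lectin chaperones, disulfide isomerases, collagen chaperones, export and degradation. Creb3l1, Ern1, Sec23a, Herpud1 and Edem1 are blue in all 4 LLC_CM libraries, while Calr, Pdia4 and Pdia6 are red in all 4.

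Many promoters of ER chaperone genes carry the ER stress element, the binding site of ATF6 with the factor NF-Y, so promoters were searched for its letters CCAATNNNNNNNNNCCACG on both strands (RefSeq, GRCm38.p6, 250 bases before to 50 after each gene start). The promoter table held 34 of the 40 genes, all except Atf6, Creb3l1, Hyou1, Manf, Fkbp10 and Derl1. The letters were in 10 of these 34 genes (29.4%), against 0.137% of all 27025 genes with a promoter of the same length. The windows below are those of the 4 called genes that rose and hold it, of Syvn1, which fell, and of Canx and Dnajc3, which were not called, because the same letters stand before genes that moved differently. Capitals mark the element, and each sequence is written 5′ to 3′ on the strand where the element reads forward.
Hspa5: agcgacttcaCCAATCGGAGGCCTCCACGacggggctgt
Hsp90b1, nearer copy: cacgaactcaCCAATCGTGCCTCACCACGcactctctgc
Calr: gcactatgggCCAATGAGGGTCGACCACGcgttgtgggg
Pdia6: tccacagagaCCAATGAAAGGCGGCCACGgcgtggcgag
Syvn1: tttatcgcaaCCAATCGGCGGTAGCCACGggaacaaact
Canx: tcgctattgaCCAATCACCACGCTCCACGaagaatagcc
Dnajc3: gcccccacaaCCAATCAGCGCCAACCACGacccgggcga
The windows lie at chr2:34772015-34772053 (plus strand) for Hspa5, chr10:86705523-86705561 (plus strand) for Hsp90b1, chr8:84847065-84847103 (plus strand) for Calr and chr12:17266481-17266519 (plus strand) for Pdia6. Those of Syvn1, Canx and Dnajc3 lie at chr19:6046522-6046560 (plus strand), chr11:50325790-50325828 (minus strand) and chr14:118937817-118937855 (plus strand). The element ended 46 bases before the RefSeq start of Hspa5, 79 before that of Pdia6 and 25 before that of Syvn1, and Hsp90b1 held a second copy farther upstream. The count table starts Hspa5 earlier, at chr2:34771970, so by that annotation the Hspa5 window lies inside the gene. It starts Pdia6 at chr12:17266545, nearer to the element. Creld2, Ero1lb and Derl3 also held the element. Of the 9 tested ER genes with the element, 4 rose and 1 fell, with a median log2 fold change of 0.13. Of the 24 tested ER genes in the promoter table without it, 7 rose and 11 fell, with a median of -0.10. Over all genes tested, 18.8% were called higher and 18.1% lower. Outside the 40 genes, 8 tested genes held the element, 1 called higher and 1 lower, with a median of 0.03. A match is only a description of the letters, and the comparison of these small sets was not tested. The share of 29.4% rests in part on the choice of the 40 genes by name.

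Chaperones of the Hsp70, Hsp90 and lectin classes were split: of 11 genes, 4 rose and 1 fell, with a median log2 fold change of 0.10. The genes that rose include the 3 with the highest level per length (Hsp90b1, Calr and Hspa5), while their cofactors were mostly not called. Calr encodes calreticulin, the soluble lectin chaperone and calcium store of the ER lumen. Calr had 1075, 946, 938 and 962 CPM in LLC_CM, against 709, 700.0, 663 and 687 CPM in NCM. Every LLC_CM library exceeded every NCM library, and Calr was 1.42-fold higher (log2 fold change 0.51 ± 0.07, edgeR, adjusted p = 2.6e-05). Its membrane-bound relative Canx, calnexin, had 458 to 532 CPM in LLC_CM and 442 to 495 CPM in NCM, with a log2 fold change of 0.05 ± 0.07 and overlapping groups.

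Hspa5 encodes BiP, the ER Hsp70 that binds unfolded chains and holds the stress sensors inactive. Its values were 862, 909.6, 788 and 852 CPM in LLC_CM, against 725, 717, 658 and 717 CPM in NCM. The groups did not overlap, with the highest value in LLC_CM replicate 2 and the lowest in NCM replicate 3, and Hspa5 was 1.21-fold higher (log2 fold change 0.28 ± 0.07, edgeR, adjusted p = 0.0048). Hsp90b1 encodes GRP94, the ER Hsp90. It had 1634, 1758, 1408 and 1510.3 CPM in LLC_CM, against 1295, 1286, 1097 and 1228 CPM in NCM. Its groups were also separate, and it was 1.29-fold higher (log2 fold change 0.36 ± 0.09, edgeR, adjusted p = 0.0034). A pseudogene on the other strand overlapped 10.3% of its exonic length, so a small share of its reads is uncertain.

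Sdf2l1, which joins BiP and its J-domain partners, was the least abundant of the genes that rose in this group. Sdf2l1 had 10.1, 10.2, 10.5 and 9.50 CPM in LLC_CM, against 5.94, 6.80, 7.88 and 7.10 CPM in NCM. The groups were separate, and Sdf2l1 was 1.46-fold higher (log2 fold change 0.54 ± 0.11, edgeR, adjusted p = 0.0011). Dnajb9 encodes ERdj4, a J-domain partner of BiP that in mouse cells keeps IRE1 alpha inactive. Dnajb9 was the only gene of the group called lower, at 12.5 to 14.5 CPM in LLC_CM and 14.9 to 20.6 CPM in NCM (log2 fold change -0.31 ± 0.11, edgeR, adjusted p = 0.035). This call was lost without LLC_CM replicate 1 (adjusted p = 0.0502) or 4 (0.092) and without NCM replicate 3 (0.063) or 4 (0.12), and in the odd-numbered (0.42) and even-numbered (0.092) replicates alone.

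The other cofactors showed no called change. Hyou1, the ER Hsp110 that exchanges nucleotide on BiP, had 64.2 to 80.7 CPM in LLC_CM and 71.7 to 78.6 CPM in NCM, with a log2 fold change of -0.03 ± 0.07. Dnajb11 and Dnajc3 encode ERdj3 and p58IPK, J-domain partners of BiP, with log2 fold changes of -0.00 ± 0.07 and -0.13 ± 0.05. Dnajc3 would be called without NCM replicate 3 (edgeR, adjusted p = 0.021) and in DESeq2 (0.040). The stress-induced secreted factor Manf and the ER protein Creld2 had log2 fold changes of 0.10 ± 0.06 and 0.13 ± 0.08. Manf had 66.0 to 68.8 CPM in LLC_CM and 59.2 to 67.5 CPM in NCM, and Creld2 had 26.0 to 31.6 CPM in LLC_CM and 24.9 to 26.9 CPM in NCM, with overlap in both. The calls of Hspa5, Hsp90b1 and Sdf2l1 were lost in fits of 2 libraries against 2, with adjusted p of 0.15, 0.094 and 0.055 in the odd-numbered replicates and 0.13, 0.085 and 0.062 in the even-numbered ones (edgeR), always higher in LLC_CM.

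Disulfide isomerases, which form and rearrange disulfide bonds in the ER lumen, were higher or not called: of 7 genes, 5 rose and none fell, with a median log2 fold change of 0.31. Pdia4 encodes ERp72. It had 469, 452, 439 and 447 CPM in LLC_CM, against 311, 312, 295 and 285 CPM in NCM. The groups were far apart relative to their spread, and Pdia4 was 50.1% higher (log2 fold change 0.59 ± 0.06, edgeR, adjusted p = 1.4e-06). Pdia6 encodes P5, an isomerase that works with BiP. Its values were 472, 469.8, 452 and 508 CPM in LLC_CM, against 322, 335, 311 and 298 CPM in NCM. It was 50.2% higher with separate groups (log2 fold change 0.59 ± 0.06, edgeR, adjusted p = 3.0e-06).

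Pdia3, Pdia5 and Ero1l rose by smaller amounts. Pdia3, the ERp57 partner of calreticulin and calnexin, had 977 to 1138 CPM in LLC_CM and 780 to 897 CPM in NCM, and was 1.24-fold higher (log2 fold change 0.31 ± 0.08, edgeR, adjusted p = 0.0045). Pdia5 averaged 90.4 ± 9.37 CPM in LLC_CM and 69.1 ± 4.61 CPM in NCM (SD, n = 4), a log2 fold change of 0.39 ± 0.08 (edgeR, adjusted p = 0.00095). Ero1l, the oxidase that supplies disulfides to the isomerases, overlapped between groups, at 52.6 to 75.1 CPM in LLC_CM and 47.0 to 56.4 CPM in NCM. Its log2 fold change was 0.28 ± 0.10 (edgeR, adjusted p = 0.047), and the call was lost in 13 of 19 other settings, including without LLC_CM replicate 1 (0.14) or 2 (0.12) and without NCM replicate 1 (0.054), 2 (0.062), 3 (0.10) or 4 (0.14). In fits of 2 libraries against 2, Pdia3 lost the call (0.098 in the odd-numbered and 0.14 in the even-numbered replicates), as did Pdia5 in the even-numbered ones (0.11).

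P4hb had the highest level per length of the 39 genes in LLC_CM, and in NCM it came after Serpinh1. It was not called. P4hb encodes protein disulfide isomerase, which is also the beta subunit of collagen prolyl 4-hydroxylase. It had 1649.5, 1624, 1481 and 1535 CPM in LLC_CM, against 1416, 1415, 1424 and 1356 CPM in NCM. The 4 LLC_CM values were above the 4 NCM values, but the log2 fold change of 0.16 ± 0.07 missed the threshold (edgeR, adjusted p = 0.073) and passed it in DESeq2 (0.018) and limma-voom (0.049). Ero1lb, the other oxidase of this family, was near the bottom of the tested range at 1.23 to 2.46 CPM in LLC_CM and 1.55 to 1.88 CPM in NCM, with a log2 fold change of -0.05 ± 0.23. Up to 921 bases of its transcript matched a pseudogene at 98.0% identity, so its reads may be shared.

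**Figure D3:**
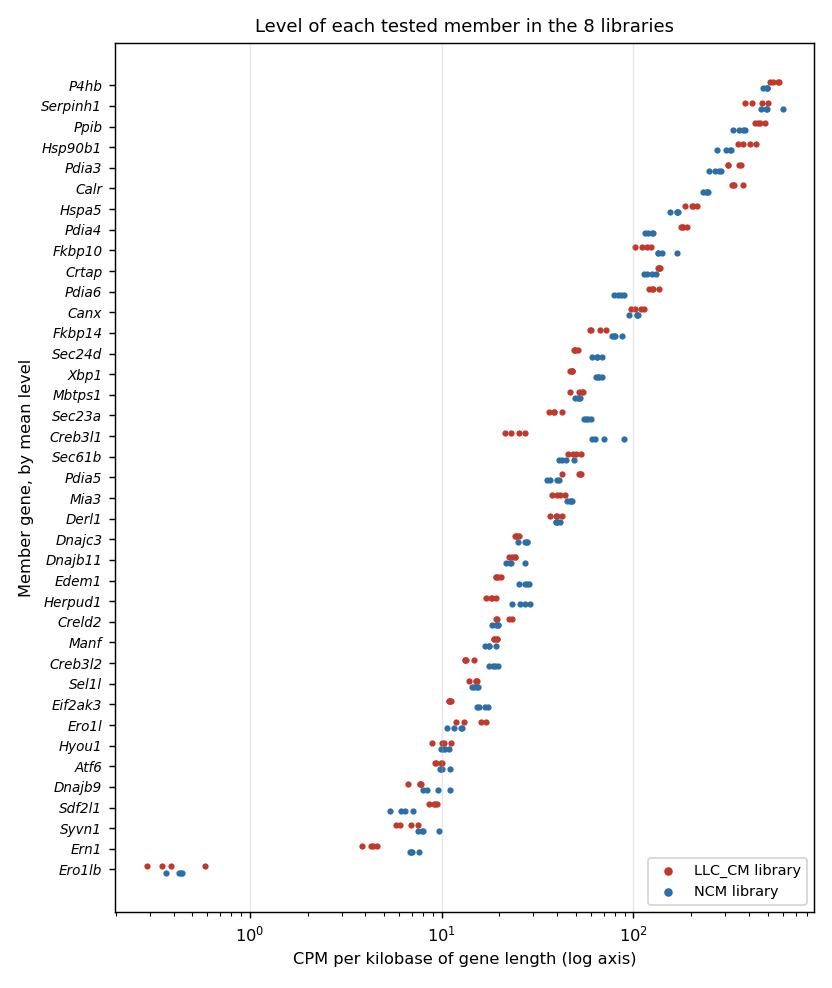
Level of each tested ER gene in every library, as CPM per kilobase of gene length on a log axis, with LLC_CM libraries in red and NCM libraries in blue and genes ordered by mean level. Levels ran from P4hb (550 in LLC_CM and 490 in NCM, group means) to Ero1lb (0.402 in LLC_CM and 0.417 in NCM), and Creb3l1 shows the widest gap between groups.

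Levels per length spread widely within each role. On the scale of CPM per kilobase, group means in LLC_CM and NCM were 550 and 490 for P4hb, 442 and 513 for Serpinh1, 455 and 360 for Ppib, and 391 and 304 for Hsp90b1. P4hb ranked 85th in LLC_CM and 86th in NCM among the 14991 genes tested. Other folding genes were far lower, such as Sdf2l1 at 9.10 and 6.25 and Dnajb9 at 7.47 and 9.24. Sensors and factors stood at 4.26 and 7.09 CPM per kilobase for Ern1, 9.62 and 10.2 for Atf6 and 24.2 and 71.1 for Creb3l1, 47.4 and 65.9 for Xbp1 and 51.7 and 51.3 for Mbtps1, in LLC_CM and NCM. By level per length, Creb3l1 ranked 2408 in LLC_CM, against 699 in NCM. Within groups, the coefficient of variation over the 38 genes with at least 5 CPM had a median of 6.12% in LLC_CM and 5.23% in NCM, and its highest value was 16.5% in LLC_CM and 18.3% in NCM.

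Collagen chaperones and prolyl isomerases were split: of 5 genes, 2 rose and 2 fell, with a median log2 fold change of -0.22. Ppib encodes cyclophilin B, which with Crtap and a prolyl 3-hydroxylase modifies the type I collagen chains. Ppib had 441, 463, 415 and 428 CPM in LLC_CM, against 365, 342, 357 and 317 CPM in NCM. The groups did not overlap, and Ppib was 1.26-fold higher (log2 fold change 0.34 ± 0.06, edgeR, adjusted p = 0.00071). Crtap, at 237 to 245 CPM in LLC_CM and 201 to 231 CPM in NCM, was 1.12-fold higher (log2 fold change 0.16 ± 0.06, edgeR, adjusted p = 0.041). That call was lost without LLC_CM replicate 1 (0.11), 3 (0.077) or 4 (0.073) and without NCM replicate 2 (0.14), 3 (0.052) or 4 (0.14). It was lost in 11 of 19 other settings, including the odd-numbered (0.53) and even-numbered (0.16) replicates alone. An antisense neighbour, Snx22, overlapped 25.0% of the exonic length of Ppib in GENCODE M21, whose model of the gene differs from the table's.

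The 2 FK506-binding isomerases fell. Fkbp14 encodes FKBP22, an ER prolyl isomerase for collagen. It had 279.5, 302, 249 and 252 CPM in LLC_CM, against 365, 332, 324 and 334 CPM in NCM. All LLC_CM values were under all NCM values, and Fkbp14 fell by 0.32 ± 0.07 on the log2 scale (edgeR, adjusted p = 0.0022). Fkbp10 encodes FKBP65, a collagen chaperone whose loss causes brittle bone disease in humans. It had 326, 299, 345 and 362 CPM in LLC_CM, against 395, 413, 496 and 391.6 CPM in NCM. The groups were separate, and Fkbp10 fell by 0.35 ± 0.08 (edgeR, adjusted p = 0.0042). Both calls were lost in the even-numbered replicates alone (0.12 each), and that of Ppib in the odd-numbered ones (0.11). In GENCODE M21, genes on the other strand covered 6.58% of the exonic length of Fkbp10 (Nt5c3b) and 5.01% of that of Fkbp14 (Plekha8).

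Serpinh1 encodes HSP47, the chaperone that binds the procollagen triple helix. It had 1009, 925, 1144 and 1222 CPM in LLC_CM, against 1124, 1199, 1460.3 and 1211 CPM in NCM. The ranges overlapped, and the log2 fold change of -0.22 ± 0.10 missed the threshold (edgeR, adjusted p = 0.11), which it passed only without LLC_CM replicate 4 (0.048). For comparison, the type I collagen genes that these proteins serve were lower. Col1a1 averaged 12650 CPM in LLC_CM and 17796 CPM in NCM, and Col1a2 averaged 27190 CPM in LLC_CM and 41345 CPM in NCM.

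Export genes fell: of 4 translocon and export genes, 3 fell and none rose, with a median log2 fold change of -0.29. Sec23a and Sec24d encode inner subunits of the COPII coat that buds carriers from the ER, and mutations in either cause skeletal disease in humans. Sec23a had 186, 204, 185 and 176 CPM in LLC_CM, against 289, 273, 267 and 281 CPM in NCM. The groups were widely separated, and Sec23a was 1.48-fold lower (log2 fold change -0.56 ± 0.06, edgeR, adjusted p = 2.7e-06). An antisense gene covered 8.9% of its exonic length. Sec24d had 190.3, 188, 197 and 191 CPM in LLC_CM, against 247, 235, 265 and 248 CPM in NCM. It was also lower in every LLC_CM library than in any NCM library (log2 fold change -0.38 ± 0.06, edgeR, adjusted p = 7.1e-05).

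Mia3 encodes TANGO1, which loads procollagen into COPII carriers. Mia3 had 166 to 194 CPM in LLC_CM and 200.0 to 211 CPM in NCM, and fell by 0.20 ± 0.06 (edgeR, adjusted p = 0.016), a call lost in the odd-numbered (0.19) and even-numbered (0.16) replicates alone. Sec61b, a subunit of the translocation channel and the entry side of the pathway, had 58.0 to 67.4 CPM in LLC_CM and 52.1 to 62.5 CPM in NCM. Its log2 fold change of 0.16 ± 0.07 was not called (edgeR, adjusted p = 0.097) and was called without NCM replicate 3 (0.032). Some reads of Sec61b may be shared with the gene Gm10320, which matched 165 bases (22.8%) of the Sec61b transcript at 99.4% identity. A shorter response element of 8 letters, TGACGTGG, is the core bound by XBP1 and ATF6. It was in the promoters of 2 of the 34 genes, Sec23a and Sec24d, with no overlap with the longer elements. Of all genes with a promoter, 0.714% held it (both strands). Outside the 40 genes, 102 tested genes held the core, of which 38 were called, 11 higher and 27 lower. Over all genes tested, 36.9% were called, 18.8% higher and 18.1% lower. Whether genes with the core moved differently from other genes was not tested. The match of Sec24d, which fell as Sec23a did, is in capitals below, at chr3:123267460-123267487 (plus strand).
Sec24d: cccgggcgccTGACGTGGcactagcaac

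Degradation genes were lower or not called: of 5 tested, 3 fell and none rose, with a median log2 fold change of -0.33. Herpud1 encodes HERP, a stress-inducible scaffold of the ubiquitin ligase complex that extracts misfolded protein. Herpud1 had 42.5, 39.5, 42.1 and 44.6 CPM in LLC_CM, against 59.7, 54.2, 67.1 and 63.1 CPM in NCM. The groups were separate, and Herpud1 was 1.45-fold lower (log2 fold change -0.53 ± 0.07, edgeR, adjusted p = 2.8e-05). Its promoter held the related ER stress element II, in capitals below. This element was in 0.0444% of all genes with a promoter (both strands) and in 1 other gene of the 40, Dnajb11. The sequence, at chr8:94386367-94386397 (plus strand), is shown because this well-known stress target fell while Hspa5 rose.
Herpud1: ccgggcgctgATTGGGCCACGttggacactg

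Edem1 encodes a mannose-recognizing protein that hands misfolded glycoproteins to degradation and is a known target of XBP1. Edem1 had 119, 115, 112 and 112 CPM in LLC_CM, against 163, 149, 159 and 168 CPM in NCM. No values overlapped, and Edem1 was 1.39-fold lower (log2 fold change -0.48 ± 0.05, edgeR, adjusted p = 5.6e-06). Syvn1 encodes HRD1, the ubiquitin ligase of the complex. Its values were 27.6, 29.0, 35.7 and 33.0 CPM in LLC_CM, against 35.9, 38.1, 46.1 and 37.5 CPM in NCM, nearly touching at 35.7 and 35.9 CPM. It fell by 0.33 ± 0.10 (edgeR, adjusted p = 0.014), and lost the call without LLC_CM replicate 1 (0.051) and in the odd-numbered (0.11) or even-numbered (0.12) replicates alone.

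The HRD1 partner Sel1l and the channel-forming Derl1 were not called. Derl1 had 133, 123, 115 and 126 CPM in LLC_CM, against 123, 124, 130.3 and 125 CPM in NCM. The ranges lay on top of each other (log2 fold change -0.02 ± 0.06, with 652 bases of the transcript shared with a pseudogene), and Sel1l, at 118 to 130.4 CPM in LLC_CM and 123 to 132 CPM in NCM, had a log2 fold change of -0.01 ± 0.05. Derl3, a stress-induced relative of Derl1, had no read in any of the 8 libraries, which allows up to 0.110 CPM.

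**Figure D4:**
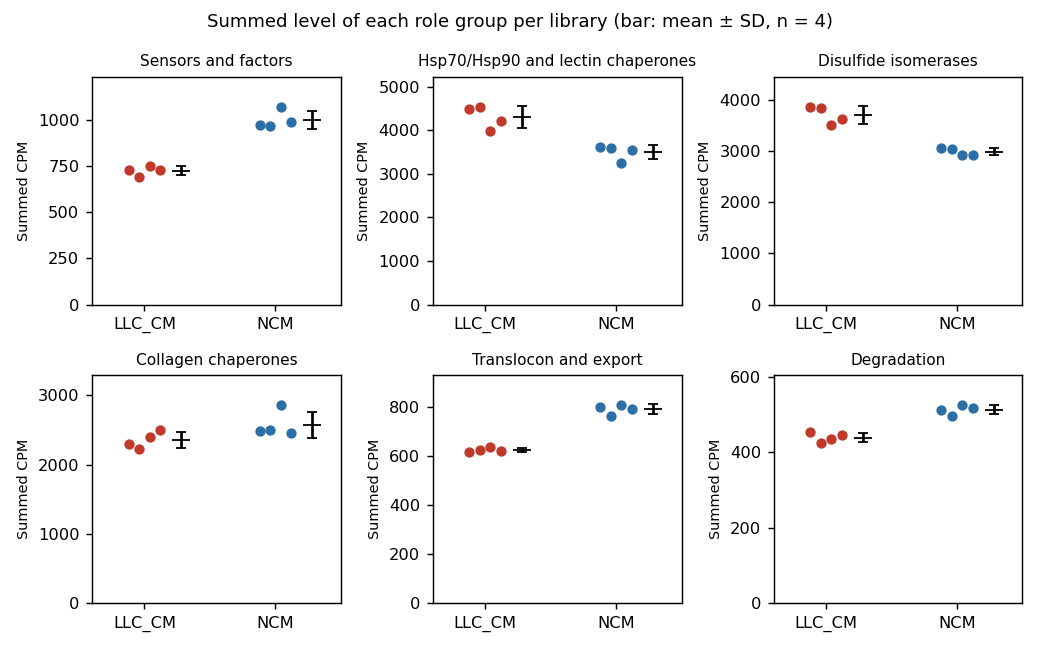
Summed CPM of the genes of each role group in every library, with the mean and SD of the 4 libraries of each group beside the points and axes from 0. Sums of the Hsp70/Hsp90 and lectin chaperones and of the disulfide isomerases are higher in all 4 LLC_CM libraries, and those of the sensors, export and degradation genes are lower in all 4, while the collagen chaperones overlap.

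Summed by role, chaperones and isomerases held most of the reads of the 40 genes. The 11 chaperone genes summed to 4303 ± 257 CPM in LLC_CM and 3503 ± 168 CPM in NCM (SD, n = 4), and the 7 isomerase genes to 3707 ± 174 CPM in LLC_CM and 2990.5 ± 72.4 CPM in NCM. The 7 sensor and factor genes summed to 725 ± 23.9 CPM in LLC_CM and 999.8 ± 48.5 CPM in NCM. Export genes summed to 623 ± 8.03 CPM in LLC_CM and 789 ± 19.1 CPM in NCM, and degradation genes to 439.6 ± 12.2 CPM in LLC_CM and 514 ± 11.9 CPM in NCM. The sum over all 40 genes was 12154 ± 331 CPM in LLC_CM and 11368 ± 106 CPM in NCM, about 1.18% to 1.24% of the reads of each LLC_CM library and 1.12% to 1.14% of those of each NCM library. These sums carry no test and lean on a few abundant genes. In the chaperone sum, Hsp90b1, Calr and Hspa5 averaged 1578, 980 and 853 CPM in LLC_CM and 1226, 690 and 704 CPM in NCM. In the isomerase sum, P4hb, which was not called, averaged 1573 CPM in LLC_CM and 1403 CPM in NCM.

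Other genes of the same pathway, from 8 lists of 150 names in all, were called lower more often than higher. Of 142 tested, 76 were called (53.5%, against 36.9% of all genes tested), 24 higher and 52 lower, with a median log2 fold change of -0.07. Among other sensor and stress factor genes, 2 rose and 7 fell of 14. Those that rose were Creb3l4, by 1.47 ± 0.41 on the log2 scale, and Ppp1r15b, by 0.21 ± 0.06. Creb3l4 was low, at 0.598 to 1.59 CPM in LLC_CM and 0.141 to 0.631 CPM in NCM, and these ranges overlapped. Atf4, the factor translated when PERK or related kinases act, had 135, 150.2, 154 and 150.2 CPM in LLC_CM, against 198, 195, 223 and 211 CPM in NCM, with no overlap, and fell by 0.49 ± 0.06. Its target Chac1 averaged 0.841 CPM in LLC_CM and 4.01 CPM in NCM and fell by 2.25 ± 0.25. Another target, Trib3, averaged 1.59 CPM in LLC_CM and 3.12 CPM in NCM and fell by 0.98 ± 0.22. Creb3l3, a relative of Creb3l1 best known from liver, fell by 1.68 ± 0.15, at 4.09 CPM in LLC_CM and 13.2 CPM in NCM. Ddit3, which encodes CHOP, the factor linked to death under lasting ER stress, averaged 18.6 ± 1.70 CPM in LLC_CM and 16.3 ± 2.48 CPM in NCM and was not called (log2 fold change 0.19 ± 0.11, edgeR, adjusted p = 0.20). Creb3l4, which rose, and Trib3, which fell, lost their calls in the even-numbered replicates alone (edgeR, adjusted p = 0.15 and 0.14).

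Thiol enzymes outside the 40 genes were led by Qsox1, a secreted sulfhydryl oxidase. Qsox1 had 968, 906, 1053 and 1077 CPM in LLC_CM, against 390.1, 397, 405 and 358 CPM in NCM. It was 2.58-fold higher with widely separated groups (log2 fold change 1.37 ± 0.07), the largest rise among the thiol enzymes tested. Prdx4, an ER peroxidase, and Txndc12 rose by 0.36 ± 0.09 and 0.32 ± 0.07. Of 13 tested thiol enzymes, 4 rose and 3 fell (53.8% called, against 36.9% of all genes tested). The list of other ER chaperones and luminal calcium-binding proteins also holds the cytosolic Hspa1a and Hspa1b. Of its 20 tested genes, 7 rose, Hspa1b among them, and 5 fell (60% called). The isomerases Fkbp11 and Fkbp7 fell by 0.74 ± 0.08 and 0.48 ± 0.08. The inducible cytosolic Hsp70 gene Hspa1b averaged 4.59 CPM in LLC_CM and 1.98 CPM in NCM and rose by 1.21 ± 0.20. Its near-identical copy Hspa1a can share its reads.

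Export and translocation genes outside the 40 held more calls lower than higher, set against 18.1% lower and 18.8% higher over all genes tested. Of 24 tested COPII coat and cargo receptor genes, 2 rose and 13 fell, with a median log2 fold change of -0.15. Sec16b, which marks the ER exit site, fell by 0.64 ± 0.07, the outer coat subunit Sec31a by 0.48 ± 0.07, and Ctage5, the partner of TANGO1, by 0.46 ± 0.06. Of 24 translocon, signal recognition and signal peptidase genes, 5 rose, 9 fell and 10 were not called. The largest fall was that of Tram2, a translocon protein tied to collagen synthesis, at -0.58 ± 0.07 on the log2 scale, and Srprb and Sec63 fell by 0.42 ± 0.07 and 0.41 ± 0.06.

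Of 20 other degradation genes, 1 rose and 7 fell (40% called, near the 36.9% of all genes tested). Vimp, which encodes selenoprotein S, fell by 0.50 ± 0.07 and Aup1 by 0.29 ± 0.07, while the lectin gene Os9 rose by 0.36 ± 0.09 with overlapping groups. Of 15 glycosylation genes, 3 rose and 2 fell (33.3% called), including a rise of 0.34 ± 0.06 for Ddost and 0.31 ± 0.06 for Stt3b and a fall of 0.24 ± 0.06 for Rpn1, all parts of the oligosaccharyl transferase. Of 12 genes of ER turnover and membrane shape, 6 fell and none rose (50% called). Ccpg1, an ER-phagy receptor induced by ER stress, fell by 0.63 ± 0.05, Ckap4 by 0.29 ± 0.07, and Fam134a by 0.24 ± 0.08. In the odd-numbered replicates alone, the calls of Prdx4 (edgeR, adjusted p = 0.16), Rpn1 (0.077) and Fam134a (0.077) were lost. In the even-numbered ones alone, those of Txndc12 (edgeR, adjusted p = 0.12), Ddost (0.051), Rpn1 (0.16), Os9 (0.085), Aup1 (0.14), Ckap4 (0.18) and Fam134a (0.28) were lost. The call of Fam134a was also lost without LLC_CM replicate 1 (edgeR, adjusted p = 0.072) or NCM replicate 3 (0.055).

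**Figure D5:**
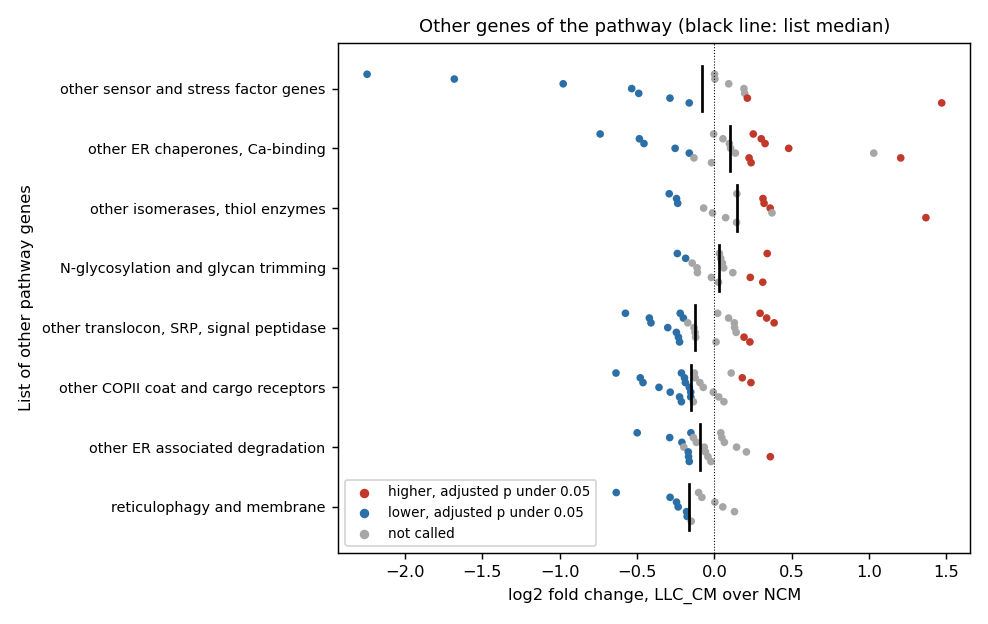
Log2 fold change of LLC_CM over NCM for the 142 tested genes of the 8 other pathway lists, 1 point per gene, with red points called higher and blue points called lower at an adjusted p under 0.05 and a black line at each list's median. The COPII list has 13 blue and 2 red points, and Qsox1 is the red point at 1.37 among the thiol enzymes.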

How the data were processed

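The authors deposited 1 table of raw read counts per gene for 8 libraries, as whole numbers, with gene names, mm10 coordinates and gene lengths. Per the submitters' processing notes, the tools were CASAVA, STAR and featureCounts; their versions are not given in the sources used here. Per the labels' protocols, poly(A) libraries were made from 200 ng RNA with 12 PCR cycles, using a kit that does not mark strand. Groups and replicate numbers came from sample titles. Genes passing edgeR's filterByExpr (14991) were fitted with TMM factors in edgeR's quasi-likelihood test (edgeR 4.0.16, limma 3.58.1, R 4.3.3), without covariates. Benjamini-Hochberg adjustment ran over all 14991 genes at 0.05, and each standard error was taken as |log2 fold change| over the root of the test's F. The fit was tested on simulated data.

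The 40 genes and the 8 other lists were chosen with earlier results of these data known. Values per library are given for ER genes called with an absolute log2 fold change of at least 0.5, and in each role for the 2 smallest adjusted p-values and the highest level per length, plus Hspa5, Fkbp10 and Syvn1, added after their values were seen. From each other list, up to 3 called genes with at least 1 CPM and the largest change were named. Atf4, Ddit3, Creb3l4, Ppp1r15b, Hspa1a, Alpl, Bglap, Spp1, Col1a1 and Col1a2 were added after their values were seen. Overlaps used GENCODE M21, and sequence matches blastn 2.17.0 at 95% identity over at least 100 bases. No 2 replicates agreed within sampling noise (lowest chi-square 7.07 for each degree of freedom). Alternatives included DESeq2 1.42.0, limma-voom, other scalings and filters, a replicate block, 2 libraries against 2, and leaving out each library.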

Additional observations from a re-analysis of the deposited data

Results flagged for a closer look

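In 8 of 78 groups of 4 libraries examined (39 ER genes in each group), 1 library stood apart, with a gap to its nearest neighbour above Dixon's critical share of the group's range. Chance flags about 1 in 20 such groups. NCM replicate 3 was low for Hspa5 (658 CPM, the next at 717) and for Canx (442 CPM, the next at 488). LLC_CM replicate 2 was low for Pdia5 (76.4 CPM, the next at 94.0) and for Sel1l (118 CPM, the next at 129). LLC_CM replicate 4 was low for Dnajb9 (12.5 CPM, the next at 14.3), and LLC_CM replicate 3 was high for Creb3l2 (107 CPM, the next at 97.7). NCM replicate 2 was high for Atf6 (102 CPM, the next at 92.1), and NCM replicate 4 was low for P4hb (1356 CPM, the next at 1415). Without these libraries the calls of Hspa5, Pdia5 and Creb3l2 held and that of Dnajb9 was lost.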

How the results depend on the processing

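All 25 called ER genes kept their sign in each of 19 other settings, and 12 of them kept the call in all 19. The count of 25 (11 higher, 14 lower) was 21 to 24 (9 to 10 higher, 12 to 14 lower) when 1 library was left out. It fell to 15 (4 higher) in the odd-numbered replicates alone and to 13 (4 higher, 9 lower) in the even-numbered ones, fits with 2 libraries per group. Over all genes tested, those fits called 3034 (1549 higher, 1485 lower) and 3145 (1623 higher, 1522 lower), and leaving out 1 library gave 4912 to 5501 (2429 to 2735 higher, 2445 to 2819 lower). For the other pathway genes they called 30 (11 higher, 19 lower) and 27 (11 higher, 16 lower), leaving out 1 library gave 57 to 74 (19 to 26 higher, 37 to 48 lower), and an adjusted p of 0.01 left 43 (26 lower). Same-numbered libraries did not pair across groups: their deviations correlated at 0.07, -0.04, 0.20 and -0.03. With the replicate number as a block, 23 ER genes were called (10 higher, 13 lower), 69 other pathway genes and 5473 genes in all, and Crtap and Dnajb9 lost their calls (edgeR, adjusted p = 0.051 each). Other scalings moved the median of all genes by at most 0.013 on the log2 scale. Genes at a few CPM, such as Ero1lb, are limited by depth.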
